A study of Mus musculus with 19 samples.

Results

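A set of 10 nuclear genes for the making of mitochondria and the upkeep of mitochondrial DNA (mtDNA) were followed through RNA sequencing of mouse heart. They were taken by symbol: Ppargc1a, Ppargc1b, Esrra, Nrf1, Tfam, Tfb2m, Polrmt, Polg, Polg2 and Ssbp1. All 10 were among the 25239 gene symbols of the count table, and all 10 were among the 14301 genes with enough counts to be tested. The libraries came from a mouse model of Kawasaki disease, a childhood inflammation of arteries, and asked how loss of Mcm8 alters the response to treatment. Hearts were wild type or Mcm8-/- (knockout), and each genotype received PBS as the vehicle or LCWE, a cell wall extract of Lactobacillus casei that is used to cause arteritis in mice. There were 5 wild-type PBS, 3 knockout PBS, 6 wild-type LCWE and 5 knockout LCWE libraries. The labels used here give no strain, age, sex, dose, time after treatment or deleted part of Mcm8. They do not say that libraries came from separate animals, and the p-values therefore cover only the spread between libraries, which may be technical.

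Mitochondria are built from proteins of both the nuclear and the mitochondrial genome, and the genes studied here couple the pair. PGC-1α and PGC-1β (Ppargc1a, Ppargc1b) are coactivators that bind transcription factors, among them the nuclear receptor ERRα (Esrra) and nuclear respiratory factor 1 (Nrf1, not to be confused with Nfe2l1), and raise the transcription of genes for respiration and fat oxidation. Tfam packages and bends mtDNA, and together with Tfb2m it allows the mitochondrial RNA polymerase Polrmt to start transcription. Polg and its accessory subunit Polg2 copy mtDNA while the single-strand binding protein Ssbp1 covers the exposed strand. Heart muscle, which depends on fat oxidation, is rich in mitochondria.

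Promoter windows (250 bases before to 50 after the start) from RefSeq on GRCm38.p6 were found for 9 of the 10 genes, with 2 windows for Nrf1. Ppargc1b had no entry. Each window was searched on both strands for letters bound by factors of the same pathway. The NRF1 motif GCATGCGC was in 3 of the 10 windows (Tfb2m, Polrmt and Esrra), against 2.71% of the 32817 windows in the table. The ETS motif CCGGAAG, the core bound by the factor GABP, was in 5 windows (Ssbp1, Polg, Tfam, Polrmt and Polg2), against 8.86% of all windows. The estrogen-related receptor motif AAGGTCA (4.72% of all windows) and the full cyclic AMP response element TGACGTCA (1.79%) were in none of the 10. A match is a description of the letters and does not show binding. Stretches of 30 bases are shown because they show where the letters lie in the windows. They are written 5′ to 3′ on the strand of the gene, with the motif, or its reverse complement, in capitals.
Tfb2m NRF1 motif, chr1:179546245-179546274, minus strand: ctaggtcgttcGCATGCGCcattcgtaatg
Polrmt NRF1 motif, chr10:79746696-79746725, minus strand: agagtatttctGCGCATGCtctcttgccgc
Esrra NRF1 motif, chr19:6921824-6921853, minus strand: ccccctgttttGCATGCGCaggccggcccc
Tfam ETS motif, chr10:71238073-71238102, minus strand: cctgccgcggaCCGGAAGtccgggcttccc
Polrmt ETS motif, chr10:79746606-79746635, minus strand: ccctaagagcgCTTCCGGcagtcgcagaac
Polg ETS motif, chr7:79466293-79466322, minus strand: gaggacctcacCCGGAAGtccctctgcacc
Polg2 ETS motif, chr11:106779548-106779577, minus strand: cgggtgacgctCTTCCGGgggcgtggtcta
Ssbp1 ETS motif, chr6:40471410-40471439, plus strand: ggctccgtgcgCCGGAAGcgagccgctggc
Measured from the start, the first base of the 5 ETS matches lay between -47 and -29. The NRF1 matches lay at -133 in Polrmt, -34 in Esrra and 13 in Tfb2m, the last of these inside the transcript. Polrmt had both motifs.

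The window of Ppargc1a had neither motif. It held TGACGT, the shorter form of the cyclic AMP response element (7.51% of all windows), on the opposite strand with its first base at -50. The 250 bases before the start are shown because Ppargc1a had the widest range of levels of the 10 genes, and the capitals mark this element.
Ppargc1a, chr5:51567726-51567975, minus strand: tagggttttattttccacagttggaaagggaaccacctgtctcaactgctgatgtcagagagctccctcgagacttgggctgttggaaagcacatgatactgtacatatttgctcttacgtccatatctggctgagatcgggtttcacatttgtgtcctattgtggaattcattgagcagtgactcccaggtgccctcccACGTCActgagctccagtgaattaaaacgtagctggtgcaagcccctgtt

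Total counts per library ranged from 11853233 to 16145911. Mcm8 was 3.66 ± 0.66 CPM (counts scaled to library size; SD, n = 5) in wild-type PBS, 4.09 ± 0.996 (n = 6) in wild-type LCWE, 0.760 ± 0.147 (n = 3) in knockout PBS and 0.392 ± 0.271 (n = 5) in knockout LCWE, and every knockout library (at most 0.910 CPM) lay below every wild-type library (at least 2.60 CPM). All 8 cardiomyocyte markers were present in every library, with summed levels of 91919 to 105741 CPM in wild-type PBS, 76035 to 95689 in knockout PBS, 97497 to 114512 in wild-type LCWE and 82166 to 108424 in knockout LCWE. The 8 macrophage markers summed to 166 to 217, 100 to 251, 200 to 426 and 258 to 655 CPM in the same order. The 4 smooth muscle markers summed to 266 to 576, 204 to 216, 277 to 864 and 227 to 881 CPM in that order, and the 3 knockout PBS libraries were the lowest of the 19. Of 5 adipocyte markers, Ucp1, which marks brown fat, a tissue rich in PGC-1α, was at 0 in 14 of 19 libraries and reached at most 0.085 CPM. Adipoq, Plin1 and Cidec were at 0 in 8, 7 and 4 libraries, and Cidea was present in all, at 24.7 to 80.6 CPM. The 5 summed to 30.6 to 44.6, 35.6 to 80.8, 25.6 to 42.7 and 32.5 to 64.6 CPM, and the sum was highest in knockout PBS replicate 3 (80.8), knockout LCWE replicate 4 (64.6) and knockout PBS replicate 1 (58.1). Cidea made up nearly all of this sum, since Adipoq, Plin1 and Cidec reached at most 1.95, 1.36 and 1.82 CPM. The order of libraries is therefore that of 1 gene more than of adipocyte markers as a set. The part of these cell types in the differences below was not tested, and in whole hearts fewer cells of a type and less RNA per cell cannot be told apart.

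A few libraries stood apart. Knockout PBS replicate 1 was the highest of the 19 libraries for 21.3% of tested genes and the lowest for another 21.3%, and its median correlation with the others was 0.942 against 0.957 to 0.976 elsewhere. Among the 10 genes it was the highest for Ppargc1a, Ppargc1b, Nrf1 and Polg, and the lowest for Tfam. Wild-type LCWE replicate 3 was the highest for 16.4% of genes and the lowest for 13.2%. It held the highest Tfam and Ssbp1 and the lowest Polg. Libraries also differed in the balance of long transcripts (at least 7119 bases of annotated exons per gene) and short ones (at most 2957 bases). The balance is the median deviation (log2) of long genes minus that of short genes. This was 0.27 and 0.31 in knockout PBS replicates 1 and 3, -0.39 and -0.57 in wild-type LCWE replicates 2 and 3, and between -0.11 and 0.13 in the other 15. Reads of 4 Y-linked genes were present in 5 libraries (1754 or more counts) and near absent in 14 (37 or fewer). The 5 were knockout PBS replicate 1, wild-type LCWE replicate 1 and knockout LCWE replicates 1, 3 and 5, and no wild-type PBS library was among them.

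Per kilobase of the principal transcript, Esrra stood above the other 9 genes in every library, at a median of 108.4 CPM per kb (91.6 to 126). Next came Ppargc1a at 16.9, Ppargc1b at 16.4, Polrmt at 15.7, Tfb2m at 13.9, Polg at 12.1, Nrf1 at 10.7 and Tfam at 9.59 CPM per kb, and each of these overlapped its neighbour in the order. Ssbp1 followed at 6.54 CPM per kb, and Polg2, the accessory subunit of the polymerase, was lowest at 3.20 without overlapping Ssbp1. The order depends on the transcript used. With the union of all annotated exons, which is 10282 bases for Nrf1 against 1879 for its principal transcript, Nrf1 moved to the ninth place at 1.95 CPM per kb. Polg2 rested on only 46 to 103 counts per library, the thinnest data of the set.

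**Figure D1:**
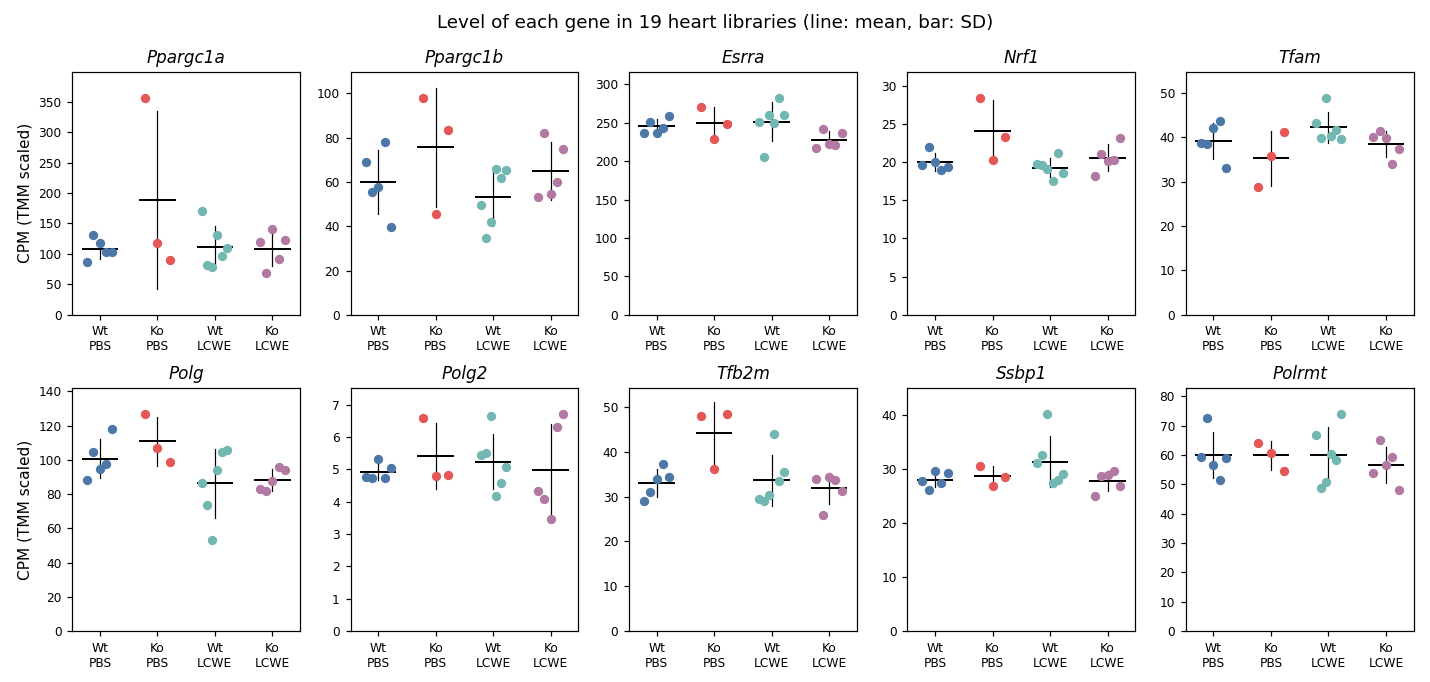
Level of each of the 10 genes in the 19 libraries, in CPM with TMM scaling on linear axes that start at 0. Each point is a library, the horizontal line is the group mean and the vertical bar the SD. A single knockout PBS library at 356 CPM sets the mean and the SD of Ppargc1a in its group, while Esrra stays between 205 and 282 CPM throughout.

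None of the 10 genes passed the test (edgeR quasi-likelihood, Benjamini-Hochberg adjusted p under 0.05 over all genes) in any of the 5 contrasts. In wild-type hearts LCWE against PBS gave log2 fold changes from -0.22 (Polg) to 0.16 (Ssbp1), with a median of 0.03 against 0.01 for all genes. None of the 10 passed, and the background was 0% of 14301 genes. At an unadjusted p under 0.05 there were 0 of the 10 and 892 of all genes (6.24%), and DESeq2 called 0 of the 10 and 1 of all genes (0.00502%). The groups overlapped for all 10 genes, where 0.699% of all genes did not overlap.

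In knockout hearts LCWE against PBS gave values below 0 for 9 of 10 genes, from -0.79 (Ppargc1a) to 0.13 (Tfam). Their median was -0.17 against 0.01 for all genes. None passed, against a background of 2.90% (415 of 14301 genes, of which 298 fell and the rest rose). At an unadjusted p under 0.05 there were 2 (Ppargc1a and Tfb2m) against 23.4% of all genes. The groups did not overlap for 2 of the 10, Polg and Tfb2m, against 8.61% of all genes. DESeq2 called 1 of the 10, Tfb2m, against 8.59% of all genes (1253). The 415 genes of the background fell to 1 without knockout PBS replicate 1 and rose to 2935 without knockout PBS replicate 2.

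Between genotypes under PBS, knockout against wild type gave values above 0 for 8 of 10 genes with a median of 0.14 against 0.00 for all genes, from -0.15 (Tfam) to 0.80 (Ppargc1a). None passed, against a background of 0.601% (86 genes, of which 75 rose and 11 fell), and 3 (Ppargc1a, Nrf1 and Tfb2m) had an unadjusted p under 0.05, against 19.7% of all genes. All 10 overlapped between the groups, where 7.72% of all genes did not. DESeq2 called 0 of the 10 here, against 4.94% of all genes (701). This contrast uses the same knockout PBS libraries as the previous, so its values mirror the others in part by construction.

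Under LCWE, knockout against wild type gave values from -0.17 (Ssbp1) to 0.29 (Ppargc1b). None passed against a background of 0.00699%, which is 1 gene, Mcm8 itself, and 0 of the 10 had an unadjusted p under 0.05, against 5.55% of all genes. DESeq2 called 0 of the 10, against 0.0301% of all genes (6). All 10 overlapped, where 0.531% of genes did not. The interaction, which asks whether the LCWE response differed between genotypes, gave 0 of the 10 against a background of 0% of all genes by edgeR. Only Tfb2m had an unadjusted p under 0.05 in it, against 8.01% of all genes, and DESeq2 called 0 of the 10, against 0.0151% of all genes (3).

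**Figure D2:**
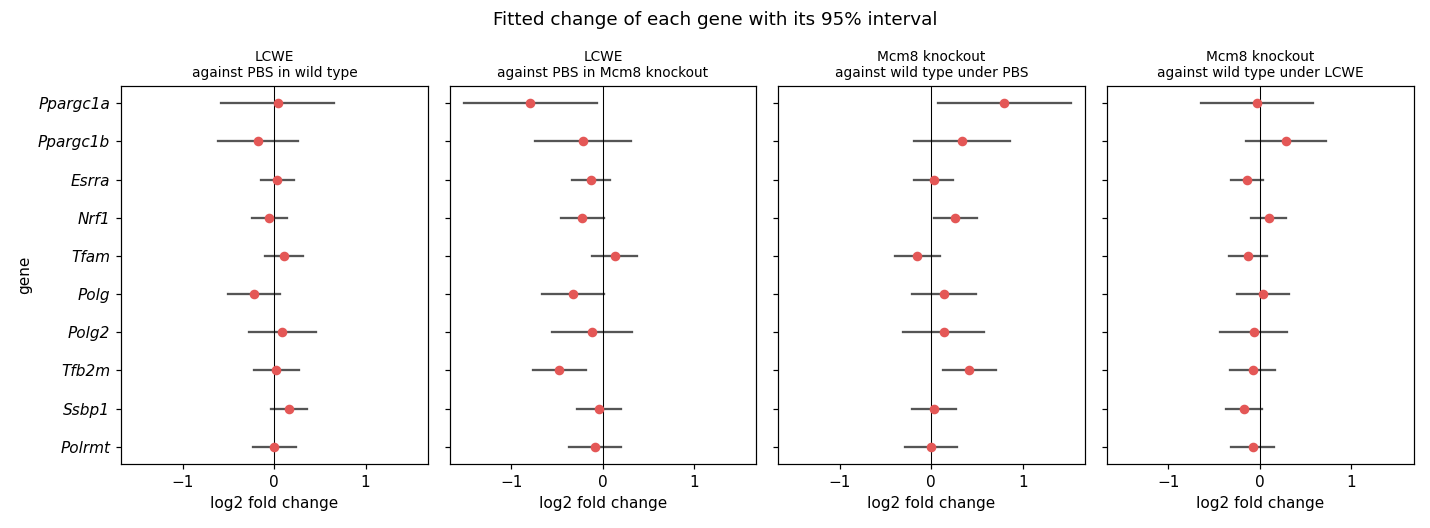
Fitted log2 fold change (point) with its 95% interval (line) for each gene in the 4 pairwise contrasts. The intervals of Ppargc1a are the widest in all panels. Those of Ppargc1a and Tfb2m lie off 0 in both contrasts that involve knockout PBS, and that of Nrf1 by genotype under PBS. None of them passed after adjustment.

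Ppargc1a (chr5:51454250-51567726, GRCm38, minus strand) encodes PGC-1α, which responds to cold, fasting, exercise and kinase signals. Its levels were 86.6, 130.6, 118.1, 102.6 and 103.9 CPM in wild-type PBS and 356.2, 118.6 and 90.3 CPM in knockout PBS. Wild-type LCWE ranged from 77.9 to 171 CPM with a median of 102, and knockout LCWE held 118.8, 68.7, 140.9, 92.4 and 122.7 CPM. All 4 groups overlapped, and a single library, knockout PBS replicate 1, lay at 356 CPM. The log2 fold change of LCWE against PBS in the knockout was -0.79 ± 0.35 (SE; edgeR adjusted p = 0.178), a fold of 0.577 with a 95% interval of 0.348 to 0.956. Knockout against wild type under PBS was 0.80 ± 0.35 (edgeR adjusted p = 0.215), a fold of 1.74 (1.05 to 2.88). Without knockout PBS replicate 1 these became 0.06 ± 0.28 and -0.05 ± 0.28, and the interaction went from -0.83 ± 0.46 (adjusted p = 0.651) to 0.03 ± 0.34. The remaining contrasts were 0.04 ± 0.29 for LCWE in wild type and -0.03 ± 0.29 for genotype under LCWE, with intervals that allow folds of 0.669 to 1.57 and 0.638 to 1.499.

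The library at 356 CPM also held Y-linked reads. Within each of the 3 groups that had libraries both with and without such reads, Ppargc1a was higher in every library with them. In wild-type LCWE the library with Y-linked reads had 171 CPM and the highest of the others 131, and in knockout LCWE the 3 with them had 118.8, 140.9 and 122.7 CPM against 68.7 and 92.4. This pattern was noticed after the values were seen, and it held for 93 of 14301 genes (0.650%), of which Ppargc1a was the only member of the 10. The opposite order in all 3 groups held for 0.594% of genes and for 0 of the 10. With the Y-linked level as a covariate, the difference in the knockout was -0.91 ± 0.20 (edgeR adjusted p = 0.0238) and that between genotypes under PBS was 0.25 ± 0.22 (adjusted p = 0.600). The fit with this covariate called 829 of all genes for LCWE in the knockout, against 415 without it. Knockout PBS replicate 1 is the only PBS library with Y-linked reads, so its other peculiarities and the presence of Y-linked reads cannot be told apart under PBS.

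Ppargc1b (chr18:61298136-61400431, minus strand) encodes the related coactivator PGC-1β. It had 69.0, 55.4, 57.7, 78 and 39.7 CPM in wild-type PBS, 98.0, 45.7 and 83.3 in knockout PBS, and 53.0, 82.1, 54.6, 60.04 and 75.0 in knockout LCWE. Wild-type LCWE ranged from 34.9 to 65.6 CPM (median 55.8). All groups overlapped, and no contrast over the 19 libraries came near the threshold, with LCWE in wild type at -0.17 ± 0.21 (edgeR adjusted p = 0.927). The sample names carry a number, and within the range from 100 to under 200, the only one with several libraries in both wild-type groups, the picture was different. There the 4 wild-type PBS libraries had 55.4 to 78 CPM and the 3 wild-type LCWE libraries 34.9 to 49.7 CPM, without overlap, and the log2 fold change was -0.66 ± 0.18 (edgeR adjusted p = 0.0465). From 200 up the order was the opposite, with 39.7 CPM in the PBS library and 65.6 in the LCWE library. The fit within the range called 1221 genes, against 0 over all libraries. Of the 3 LCWE libraries in that range, 2 (replicates 2 and 3) were the libraries low for long transcripts. The 2 highest Ppargc1b levels of all were in the 2 libraries high for long transcripts. Ppargc1b itself, with 3990 bases of annotated exons, is neither long nor short by the bounds of that balance. The part of this balance in the difference was not tested.

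Among the transcription factors, Esrra (chr19:6910977-6921813, minus strand) was the steadiest of the set. Its mean was 245 ± 9.80 CPM (SD, n = 5) in wild-type PBS, 249.3 ± 20.7 (n = 3) in knockout PBS, 251 ± 25.4 (n = 6) in wild-type LCWE and 228 ± 10.99 (n = 5) in knockout LCWE. Its within-group SD was below that of all but 5.53% of genes of similar level, whereas that of Ppargc1a was above 97.6% of its own. The highest library exceeded the lowest by 1.38-fold for Esrra and by 5.19-fold for Ppargc1a. Both values of Ppargc1a include knockout PBS replicate 1, at 356 CPM against at most 171 CPM in the other libraries. Knockout LCWE was the lowest group, at -0.14 ± 0.08 against wild-type LCWE (edgeR adjusted p = 0.901) and -0.13 ± 0.10 against knockout PBS (adjusted p = 0.462). The interval of the second allows folds of 0.789 to 1.06. A stretch of Esrra exons, 164 bases in all, overlaps exons of Mir6990 and Trmt112.

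Nrf1 (chr6:30047988-30153458, plus strand), whose product binds GC-rich promoters of respiratory chain genes, had a within-group SD above that of only 4.70% of genes of similar level. It had 19.6, 22.1, 20.1, 19.02 and 19.4 CPM in wild-type PBS and 28.4, 20.3 and 23.4 in knockout PBS. Wild-type LCWE ranged from 17.5 to 21.2 CPM (median 19.4), and knockout LCWE held 18.2, 21.0, 20.2, 20.3 and 23.2 CPM. The groups overlapped, with the high end in knockout PBS. Knockout against wild type under PBS was 0.26 ± 0.11 (edgeR adjusted p = 0.199), and LCWE against PBS in the knockout was -0.22 ± 0.11 (adjusted p = 0.231). Of the libraries left out in turn, only the removal of knockout PBS replicate 2 took these past the threshold. Without knockout PBS replicate 2 they were 0.37 (edgeR adjusted p = 0.0309) and -0.33 (adjusted p = 0.0472), and without knockout PBS replicate 1 they were 0.12 (adjusted p = 0.890) and -0.08 (adjusted p = 0.805).

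Of the genes that transcribe mtDNA, Tfb2m (chr1:179528055-179546267, minus strand), which opens the promoter for the polymerase, came nearest to the threshold of the whole set. It had 29.1, 31.0, 34.1, 37.2 and 34.3 CPM in wild-type PBS and 48.0, 36.2 and 48.4 in knockout PBS. Wild-type LCWE ranged from 29.0 to 44.0 CPM (median 31.9), and knockout LCWE held 33.9, 25.8, 34.4, 33.7 and 31.4 CPM. All 3 knockout PBS libraries lay above all 5 knockout LCWE libraries, while knockout and wild type under PBS overlapped by a single pair of libraries (36.2 and 37.2 CPM). LCWE against PBS in the knockout was -0.47 ± 0.14 (edgeR adjusted p = 0.0616), a fold of 0.720 with an interval of 0.588 to 0.882. Knockout against wild type under PBS was 0.42 ± 0.14 (adjusted p = 0.122), a fold of 1.33 (1.09 to 1.63). The interaction was -0.50 ± 0.18 (adjusted p = 0.587).

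Unlike those of Ppargc1a, the values of Tfb2m kept their size without knockout PBS replicate 1, at -0.41 ± 0.16 for LCWE in the knockout (edgeR adjusted p = 0.364) and 0.35 ± 0.16 for genotype under PBS (adjusted p = 0.767). The first of these passed without knockout PBS replicate 2 (-0.60, edgeR adjusted p = 0.00981), where 2935 of all genes passed. It also passed without wild-type LCWE replicate 4 (-0.47, edgeR adjusted p = 0.0490), where 319 of all genes did. In DESeq2 it passed as well (-0.48, adjusted p = 0.0289), which called 8.59% of all genes there. The second passed only without knockout PBS replicate 2 (0.54, edgeR adjusted p = 0.0189) among the libraries left out in turn. There 2606 of all genes passed. The 2 highest libraries of Tfb2m, knockout PBS replicates 1 and 3, were also those high for long transcripts. Tfb2m itself, with 2804 bases of annotated exons, is among the short genes. Short genes had median deviations of -0.11 and -0.16 in these 2 libraries. The part of that balance in the values of Tfb2m was not tested.

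**Figure D3:**
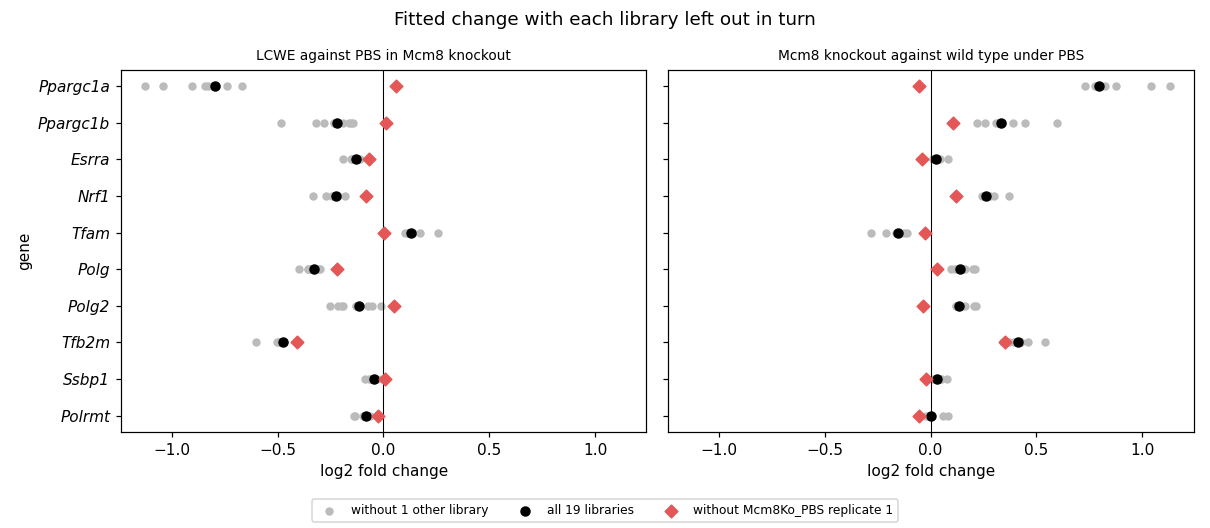
Fitted log2 fold change of each gene with all 19 libraries (black), without knockout PBS replicate 1 (red diamond) and without each other library in turn (grey). Left is LCWE against PBS in the knockout and right is knockout against wild type under PBS. Ppargc1a moves from -0.79 to 0.06 and from 0.80 to -0.05 when that library is left out, and Tfb2m stays at -0.41 and 0.35.

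Tfam (chr10:71225464-71238280, minus strand), the mtDNA packaging protein, lay on the other side of 0 from most of the set in the contrasts with knockout PBS. Its means were 39.2 ± 4.09 CPM (SD, n = 5) in wild-type PBS, 35.3 ± 6.27 (n = 3) in knockout PBS, 42.3 ± 3.50 (n = 6) in wild-type LCWE and 38.6 ± 2.90 (n = 5) in knockout LCWE. All groups overlapped. LCWE against PBS in the knockout was 0.13 ± 0.12 (edgeR adjusted p = 0.536), and genotype under PBS was -0.15 ± 0.12 (adjusted p = 0.486). Both values shrank to 0.00 and -0.03 without knockout PBS replicate 1, which held the lowest Tfam at 28.7 CPM. Polrmt (chr10:79736123-79746581, minus strand), the polymerase itself, was level across the groups, at 59.9 ± 7.86, 59.9 ± 4.83, 59.9 ± 9.52 and 56.6 ± 6.26 CPM (SD; wild-type PBS, knockout PBS, wild-type LCWE and knockout LCWE). Its intervals allow folds of 0.849 to 1.18 for LCWE in wild type and 0.777 to 1.15 in the knockout.

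Of the replication genes, Polg (chr7:79446231-79466362, minus strand), the catalytic subunit, had 99.1 to 127 CPM in knockout PBS and 81.7 to 95.7 CPM in knockout LCWE, without overlap. Wild-type PBS ranged from 88.4 to 118 CPM (median 97.8) and wild-type LCWE from 53.3 to 106 CPM (median 90.5). LCWE against PBS was -0.33 ± 0.16 in the knockout (edgeR adjusted p = 0.236) and -0.22 ± 0.14 in wild type (adjusted p = 0.821), and the test of their difference gave -0.10 ± 0.22 (adjusted p = 0.931). The lowest library, wild-type LCWE replicate 3 at 53.3 CPM, was also the lowest for long transcripts. Without it the value in wild type was -0.12. Polg, with 10742 bases of annotated exons, is among the long genes. Ssbp1, with 8360 bases, is too, and it was highest in that same library. The part of the length balance in the values of Polg was not tested. Exons of Polg share 921 bases with those of Fanci on the opposite strand, and with no strand setting stated for the counting, reads there cannot be told apart.

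Polg2 (chr11:106768253-106779537, minus strand) had means of 4.92 ± 0.26, 5.40 ± 1.02, 5.23 ± 0.86 and 4.97 ± 1.44 CPM in the same order of groups, with all groups overlapping. Its intervals are wide at this depth and allow folds of 0.680 to 1.25 for LCWE in the knockout. It shares 132 exonic bases with Milr1 on the opposite strand. Ssbp1 (chr6:40471352-40484700, plus strand) had means of 28.1 ± 1.42, 28.7 ± 1.898, 31.4 ± 4.73 and 27.9 ± 1.89 CPM. It had the largest positive value of the set in wild type, 0.16 ± 0.10 for LCWE against PBS (edgeR adjusted p = 0.803), and this was 0.07 without wild-type LCWE replicate 3, which lay at 40.2 CPM against 25.0 to 32.6 in the other 18 libraries.

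**Figure D4:**
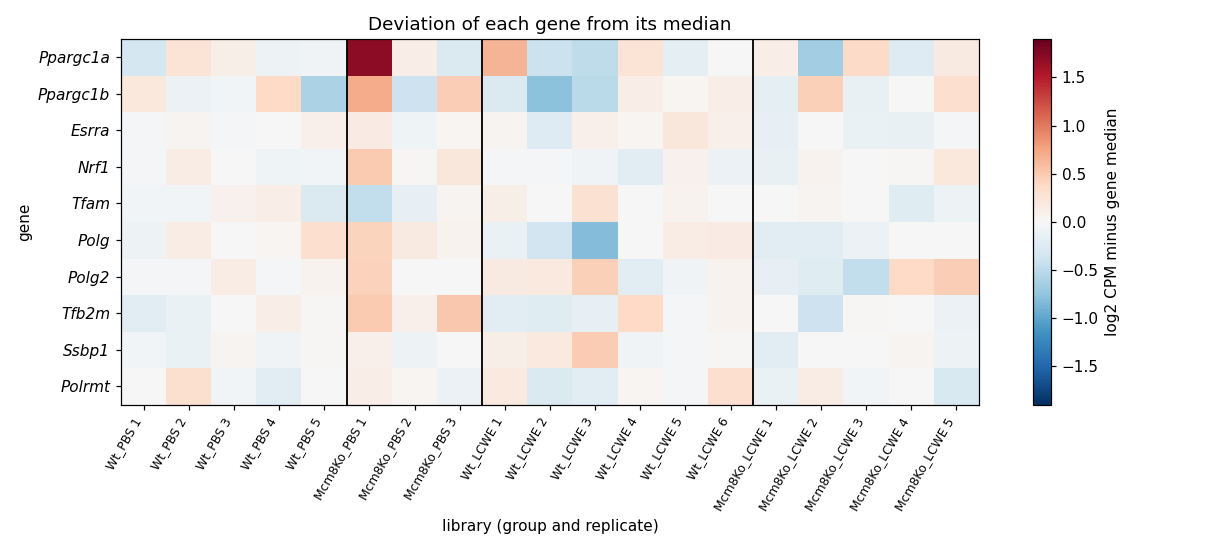
Log2 CPM of each gene minus its median over the 19 libraries, in colour (red above, blue below), with libraries in columns and vertical lines between the groups. The strongest colour is Ppargc1a in knockout PBS replicate 1, and wild-type LCWE replicate 3 combines low Polg with high Ssbp1 and Tfam.

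The neighbours of these genes in the pathway were read from lists that were all in the table and all tested. Of 40 partners and regulators of PGC-1, 3 fell and 0 rose with LCWE in the knockout, where 2.90% of all genes were called, with a median of -0.23 against 0.01 for all genes. They were Yy1 (-0.57 ± 0.12, edgeR adjusted p = 0.0293), a zinc finger factor that recruits PGC-1α, Creb1 (-0.60 ± 0.15, adjusted p = 0.0418), which drives Ppargc1a transcription in response to cyclic AMP, and Nfe2l2 (-0.67 ± 0.14, adjusted p = 0.0301), the regulator of antioxidant genes. Yy1 was 100.8, 63.2 and 85.0 CPM in knockout PBS and 52.6 to 61.3 CPM in knockout LCWE, without overlap, and 50.5 to 60.5 CPM in wild-type PBS. Nfe2l2 was 143, 76.9 and 98.1 CPM in knockout PBS and 60.4 to 76.5 CPM in knockout LCWE, also without overlap. Creb1 overlapped, at 36.4, 19.7 and 33.4 CPM against 17.9 to 22.3 CPM. Yy1 was also the only list gene that passed by edgeR in another contrast, where it rose in the knockout under PBS (0.54 ± 0.12, adjusted p = 0.0468), against 0.601% of all genes called. The 3 calls in the knockout were all lost without knockout PBS replicates 1 or 3 or knockout LCWE replicates 1, 3 or 5. There were 11 without knockout PBS replicate 2, where 2935 of all genes passed. The call of Yy1 under PBS remained only without knockout PBS replicate 2, wild-type LCWE replicates 2 or 3, or knockout LCWE replicates 2 or 4. With only the groups compared, or without both libraries that stand apart, 0 of the 40 partners passed in either contrast. DESeq2 called 6 with LCWE in the knockout, against 8.59% of all genes, and 3 by genotype under PBS, against 4.94%. The call of Yy1 under PBS was also lost with library totals (adjusted p = 0.0784), with no filter on low counts (0.0513) and with the Y-linked covariate (0.109), all by edgeR.

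Of 30 enzymes and transporters that PGC-1 and ERR factors are known to drive, 5 fell and 0 rose with LCWE in the knockout, where 2.90% of all genes were called, with a median of -0.14. Acadm, the medium-chain acyl-CoA dehydrogenase, was 1349, 1042 and 1400 CPM in knockout PBS and 674 to 962 CPM in knockout LCWE (-0.60 ± 0.14, edgeR adjusted p = 0.0357). Etfdh, which passes electrons from fat oxidation to the respiratory chain, was 849, 590 and 924 CPM in knockout PBS and 357 to 541 CPM in knockout LCWE (-0.80 ± 0.17, adjusted p = 0.0301). Neither gene overlapped between the groups. The other 3 did overlap. Hadha of the trifunctional protein (-0.76 ± 0.20, adjusted p = 0.0437), the carnitine carrier Slc25a20 (-0.64 ± 0.15, adjusted p = 0.0346) and the fatty acid binding protein Fabp3 (-0.84 ± 0.22, adjusted p = 0.0426) completed the group. Hadha was 1895 to 3161 CPM in knockout PBS and 1161 to 2121 CPM in knockout LCWE. Slc25a20 was 205 to 307 and 131 to 215 CPM, and Fabp3 4440 to 6978 and 2445 to 5400 CPM, in the same order. Wild-type PBS means were 965 CPM for Acadm, 543 for Etfdh, 1661 for Hadha, 174 for Slc25a20 and 3660 for Fabp3. In that order of genes, knockout PBS means were 1264, 788, 2618, 260 and 6103 CPM. Knockout LCWE means were 832, 453, 1551, 167 and 3404 CPM. By genotype under PBS edgeR called 0 of the 30, with 8 at an unadjusted p under 0.05 against 19.7% of all genes. DESeq2 called 5 there (all higher), against 4.94% of all genes. With LCWE in wild type none of the 30 passed. By genotype under LCWE 0 of the 30 passed by edgeR and 0 by DESeq2. There 8 had an unadjusted p under 0.05, against 5.55% of all genes. Of the 30, 27 lay below 0 in that contrast, with a median of -0.18 against 0.00 for all genes. In the test of the difference between genotypes none of the 30 passed either, with 10 at an unadjusted p under 0.05, against 8.01% of all genes, and 0 called by DESeq2.

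The 5 calls depended on the fit and on single libraries. None of the 30 enzymes passed with only the groups compared, without both libraries that stand apart, or once the range of the sample number entered as a covariate. With library totals, where the count of all genes called also fell, 3 passed. DESeq2 called 8 (all lower), against 8.59% of all genes. Of single libraries left out, none was called without knockout PBS replicates 1 or 3 or knockout LCWE replicates 1 or 5, and 1 without knockout LCWE replicate 3. There were 3 without wild-type PBS replicates 1, 2, 3, 4 or 5, wild-type LCWE replicate 1 or knockout LCWE replicate 2. There were 8 without knockout PBS replicate 2, where 2935 of all genes passed, and without wild-type LCWE replicate 3, where 741 did. Without knockout PBS replicate 1 the fitted values were nonetheless close to those over all libraries, at -0.55 for Acadm, -0.74 for Etfdh and -0.75 for Fabp3. The summed cardiomyocyte markers had a median of 83316 CPM in knockout PBS and 100697 CPM in knockout LCWE, and those of smooth muscle 205 and 767 CPM. The part of either cell type in these values was not tested.

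Genes of mtDNA replication and repair (26), mitochondrial deoxynucleotide supply (18) and mitochondrial transcription and RNA handling (27) gave 0 calls in all 5 contrasts, by edgeR. With LCWE in the knockout, 6, 5 and 3 of them had an unadjusted p under 0.05, against 23.4% of all genes, DESeq2 called 1, 1 and 0 against 8.59% of all genes, and the medians were 0.13, 0.03 and 0.06. The lowest value of the first list was that of the helicase Twnk at -0.49, and the highest that of Primpol, a primase-polymerase, at 0.61.

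Across the 19 libraries, the levels of factors and targets within the set showed no relation that passed adjustment. The 6 pairs tested, by permutation, gave Pearson's r of 0.53 for Ppargc1a with Nrf1 (p = 0.039, adjusted p = 0.078), -0.56 for Ppargc1a with Tfam (p = 0.0238, adjusted p = 0.0714) and -0.55 for Nrf1 with Tfam (p = 0.0232, adjusted p = 0.0714). Spearman's rho for these pairs was 0.09, -0.29 and -0.32 (permutation p = 0.727, 0.233 and 0.187, adjusted p = 0.848, 0.544 and 0.544). Without the 2 libraries farthest from the median of the first gene, always including knockout PBS replicate 1, r was -0.04, -0.07 and -0.21, so the relations rest on those libraries. Within the sample-number range from 100 to under 200, which holds that library, r was 0.74, -0.74 and -0.86 over 11 libraries. The other 3 pairs had r of 0.26 (Ppargc1a with Esrra, permutation p = 0.276, rho 0.13), -0.08 (Polg with Polg2, p = 0.742, rho 0.05) and -0.25 (Tfam with Polrmt, p = 0.292, rho -0.26).

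The genes whose pattern was most like that of Ppargc1a were outside the set. By the mean absolute difference of centred log2 CPM over the 19 libraries, the closest of 10561 genes were Sesn1 (0.184), Flcn (0.184), Ulk1 (0.190), Gse1 (0.203) and Kat6b (0.206), against a median of 0.385 for all genes. Each was highest in knockout PBS replicate 1, as Sesn1 with 598 CPM there and at most 241 elsewhere, Flcn with 345 and 154, and Ulk1 with 256 and 164. They were picked for likeness to Ppargc1a, which peaks there, so the shared peak follows in part from the choice. That library was the highest for 21.3% of all tested genes. Sesn1 is a stress-induced inhibitor of mTORC1 signalling, Flcn a partner of AMPK and mTORC1 control, and Ulk1 the kinase that starts autophagy. Among the members themselves the closest to Ppargc1a was Tfb2m (0.319, at rank 1332), and its homologue Ppargc1b was farther than the median gene (0.438, at rank 7856).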

How the data were processed

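Bulk RNA sequencing of mouse heart was read from a single deposited table of whole-number gene counts per library, which the authors had not normalized. The labels' protocols name a whole transcriptome kit for reverse transcription and preamplification of total RNA. The submitters' processing notes list STAR 2.7.8a, limma 3.36.160 and GRCm38, with no role for any of them. The counting program, its annotation and its strand setting are not stated there. Columns were matched to samples by label, and groups taken from genotype and treatment. Replicates were numbered in accession order.

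Genes with low counts were removed by filterByExpr (minimum count 10, minimum total 15). The rest were scaled by TMM, and a robust quasi-likelihood fit was made in edgeR 4.0.16 (R 4.3.3), with 4 groups in 1 model and no covariates. Adjustment was by Benjamini-Hochberg over all 14301 genes, at a threshold of 0.05. Standard errors are the log2 fold change divided by the square root of F, and 95% intervals use the total degrees of freedom. CPM were computed here (prior count 2 on the log2 scale). Transcript lengths and coordinates come from GENCODE M21 (GRCm38), and promoter windows from RefSeq (GRCm38.p6). Relations were tested by permutation, two-sided. No pair of libraries was as close as a duplicate would be, since the lowest chi-square per gene over 12546 genes was 8.12 within groups and 7.35 between groups. The pipeline was tested on simulated counts.

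The members, gene lists and tests were chosen with earlier results of these data known. The named genes are all 10 members, Mcm8, the list genes that passed in any contrast, and the 5 genes most like Ppargc1a. Twnk and Primpol, as the extremes of their list, were chosen after their values were seen. Alternatives were RLE scaling, library totals, other filters, DESeq2 1.42.0, only the groups compared, the Y-linked level or sample-number range as a covariate, only sample numbers 100 to under 200, and each library left out. Leaving out both libraries that stand apart was chosen after seeing the data.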

Additional observations from a re-analysis of the deposited data

How the results depend on the processing

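No paired analysis was possible because replicates were numbered in accession order and the labels give no numbers shared between groups. Over the 5 contrasts (LCWE in wild type, LCWE in the knockout, genotype under PBS, genotype under LCWE and the interaction), 0 of the 10 genes passed under RLE scaling, library totals, both other filters, only the groups compared and the sample-number range as a covariate. DESeq2 and the Y-linked covariate each called 1 in the second contrast. Within sample numbers 100 to under 200, where the knockout PBS group is replicate 1 alone and is assumed to vary like the other groups, 1, 6, 4, 0 and 1 of the 10 passed, and 1221, 4001, 3985, 0 and 2230 genes of all. The 1 in the interaction was Polg2 (-0.97). With each library left out in turn the members passing ranged from 0 to 0, 0 to 2, 0 to 2, 0 to 0 and 0 to 0, and all genes from 0 to 0, 1 to 2935, 0 to 2606, 1 to 2 and 0 to 481.

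The count of all genes with LCWE in the knockout went from 415 to 229 under library totals, 1253 in DESeq2, 0 with only the groups compared, 116 with the range covariate, 829 with the Y-linked covariate and 1 without both libraries that stand apart. That for genotype under PBS went from 86 to 21, 701, 1, 524, 0 and 0 in the same order. DESeq2 called 1 gene for LCWE in wild type, 6 for genotype under LCWE and 3 in the interaction, and the filter of 5 CPM in 3 libraries left 0 for genotype under LCWE. The cause of these shifts was not tested.

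Member values that changed sign under the alternatives other than leaving out a library lay between -0.18 and 0.095 after the change. Under library totals, which moved the median of all genes most in the interaction (-0.02 to 0.10), LCWE in wild type was -0.023 for Ppargc1a, -0.026 for Esrra and -0.038 for Tfb2m. Library totals also gave 0.020 for Ssbp1 with LCWE in the knockout, -0.047 for Esrra and -0.040 for Ssbp1 by genotype under PBS, 0.011 for Ppargc1a by genotype under LCWE, and 0.090 for Ppargc1b, 0.019 for Polg and 0.043 for Polrmt in the interaction. Within sample numbers 100 to under 200, LCWE in wild type was -0.015 for Ppargc1a, -0.049 for Esrra and -0.18 for Tfb2m, genotype under PBS was 0.085 for Polrmt, genotype under LCWE was 0.095 for Tfb2m and 0.089 for Polrmt, and the interaction was 0.017 for Ppargc1b and 0.0041 for Polrmt. The Y-linked covariate gave -0.18 for Ppargc1a and 0.00038 for Polrmt with LCWE in wild type, and 0.00065 for Polrmt by genotype under PBS. The range covariate gave -0.031 for Tfam and 0.018 for Polg in the interaction. Polrmt was 0.0031 under the filter of 5 CPM with LCWE in wild type, and 0.0081 by genotype under PBS with RLE scaling and in DESeq2.

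With each library left out, the values that crossed 0 with LCWE in wild type ranged from -0.13 to 0.11 for Ppargc1a, -0.019 to 0.088 for Esrra, -0.069 to 0.068 for Tfb2m and -0.077 to 0.081 for Polrmt. With LCWE in the knockout they ranged from -1.13 to 0.058 for Ppargc1a, -0.48 to 0.011 for Ppargc1b, -0.25 to 0.052 for Polg2 and -0.089 to 0.0087 for Ssbp1. By genotype under PBS they ranged from -0.055 to 1.13 for Ppargc1a, -0.039 to 0.083 for Esrra, -0.033 to 0.21 for Polg2, -0.019 to 0.078 for Ssbp1 and -0.054 to 0.081 for Polrmt. By genotype under LCWE they ranged from -0.14 to 0.13 for Ppargc1a, -0.077 to 0.11 for Polg, -0.19 to 0.036 for Polg2 and -0.12 to 0.011 for Tfb2m. In the interaction they ranged from -1.16 to 0.028 for Ppargc1a, -0.30 to 0.19 for Ppargc1b, -0.10 to 0.16 for Tfam and -0.21 to 0.0098 for Polg. Depth limits Polg2 most, and the 3 knockout PBS libraries limit every contrast that uses them.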
